A study of Mus musculus with 4 samples.

Results

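Connexins are the proteins of gap junctions: a ring of connexins in one cell docks with a ring in its neighbour and makes a channel for ions and small molecules. Along brain vessels they couple endothelial cells to each other and to the mural cells around them, and which connexins an endothelial cell makes depends on whether it lies in an artery, a capillary or a vein. Arterial identity is built through VEGF and Notch signalling, and venous identity is held by the nuclear receptor COUP-TFII, encoded by Nr2f2, which restrains the arterial programme. The genes described here are 7 arteriovenous markers and vascular connexins, chosen by name: the connexin genes Gja4, Gja5, Gja1 and Gjc1, the arterial markers Bmx and Gkn3, and the venous regulator Nr2f2. Of these, 6 are among the 14100 genes that both deposited tables list, and Gkn3 is in neither, out of 17905 genes listed in all.

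RNA was sequenced from endothelial cells of the brain, taken at embryonic day 18 from C57BL/6 mice. There were 2 libraries of the genotype STING ECKO (1 and 2) and 2 of wild type (WT 3 and 5). STING ECKO names an endothelial knockout of STING, the adaptor of cytosolic DNA sensing encoded by Tmem173. How the deletion was driven is not stated in the sources used here, nor is the isolation of the cells or any pooling of animals, and no treatment is named. Nothing in the labels ties each library to its own animal, so p-values here measure only the spread between libraries. The spread between the WT libraries may be technical, while the STING ECKO libraries differed in sex-linked genes, as given below.

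Library sizes ran from 18610298 to 22169261 listed reads. Tmem173 had 67 and 182 reads in the libraries labelled STING ECKO 1 and 2, while WT 3 and 5 had 97 and 130, so this gene did not separate the labels, and every direction between genotypes below rests on the labels. The library labelled STING ECKO 2 stood apart by its zeros: 13.2% of the 14100 genes had 0 reads there, against 2.39% to 5.25% in the others. STING ECKO 1 differed from the others in sex-linked genes, with 0 reads of Xist where the others had 876 (STING ECKO 2), 2347 (WT 3) and 3374 (WT 5). Levels are given as CPM, counts relative to library size after TMM scaling, and levels of different genes are compared only as RPKM, CPM per kilobase of annotated exon.

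Gja4 encodes connexin 37, an endothelial connexin of arteries and arterioles, and was the most abundant member per kilobase. Its gene (ENSMUSG00000050234) lies on the minus strand of chromosome 4, from 127311421 to 127314039 in GRCm38. It had 258 and 230 CPM in STING ECKO 1 and 2 and 258 and 273 CPM in WT 3 and 5, from 4742 to 5661 reads. The 4 values lay close together, with STING ECKO 2 lowest and WT 5 highest, and the genotypes overlapped at STING ECKO 1 and WT 3. The means were 244 ± 20.001 CPM in STING ECKO and 266 ± 10.4 CPM in WT (SD, n = 2 each). The log2 fold change of STING ECKO over WT was -0.12 (SE 0.20, 95% interval -0.64 to 0.40; adjusted p = 1.00, edgeR quasi-likelihood, Benjamini-Hochberg adjusted).

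Gja5 encodes connexin 40, the other connexin used as an arterial endothelial marker, and its reads were few and uneven. Its gene (ENSMUSG00000057123, plus strand) spans 96904693 to 97077416 on chromosome 3 in the deposited tables. The STING ECKO libraries 1 and 2 had 112 and 14 reads and WT 3 and 5 had 88 and 61, or 6.10, 0.640, 4.07 and 2.94 CPM. The highest and the lowest library were both labelled STING ECKO, 9.54-fold apart, with both WT libraries between them. The exact 95% Poisson interval was 0.350 to 1.07 CPM in STING ECKO 2 and 2.25 to 3.78 CPM in WT 5, the next lowest library, so counting error alone does not cover that gap. Counting intervals take in no other source of error. The mean was 3.37 ± 3.86 CPM in STING ECKO against 3.50 ± 0.796 CPM in WT (SD, n = 2 each), and the log2 fold change was -0.06 (SE 1.62, 95% interval -4.18 to 4.07; adjusted p = 1.00, edgeR quasi-likelihood, Benjamini-Hochberg adjusted). The sign turned with the libraries: leaving out STING ECKO 2 gave 0.80 and leaving out STING ECKO 1 gave -2.43, while leaving out WT 3 gave 0.20 and WT 5 -0.26. A block by deposited table gave -0.79. Exons of Gja5 share 165 bases with Gpr89 on the opposite strand, which had 409 to 708 reads, and the sources used here do not say whether counting used strand.

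Bmx encodes a Tec family tyrosine kinase that marks arterial endothelium and is also made in myeloid cells. Its gene (ENSMUSG00000031377, minus strand) lies on the X chromosome from 164192842 to 164258193. The STING ECKO libraries 1 and 2 had 6 and 0 reads, while WT 3 had 0 and WT 5 had 187, or 9.01 CPM. Nearly all of its reads thus came from WT 5, and the other WT library was at 0 with STING ECKO 2. With 0 reads replaced by a floor of 3 reads, WT 5 was 65.0-fold above WT 3 and 65.7-fold above STING ECKO 2. These ratios depend on the floor and are not lower bounds. WT 5 was 27.6-fold above STING ECKO 1. Bmx did not pass the filter on low counts, which asks for about 10 reads or more in at least 2 libraries, and so was not in the main test. Without that filter its adjusted p was 1.00 (edgeR quasi-likelihood, Benjamini-Hochberg adjusted).

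The read pattern of Bmx was not common but also not unique to it. Genes with at least 187 reads in 1 library and at most 6 in each of the others numbered 11 in WT 5 with Bmx among them, 6 in WT 3, 3 in STING ECKO 1 and 4 in library 2 of that genotype. Of the 9 microglia and macrophage markers, 6 were highest in WT 5 as well, while P2ry12, a microglial receptor, was lowest there (6.65 CPM, with 23.5 to 47.9 CPM elsewhere) and Cx3cr1 and Aif1 peaked in other libraries. The 9 together summed to 490 and 347 CPM in STING ECKO 1 and 2, 538 in WT 3 and 1294 in WT 5, with Ptprc at 0 reads in STING ECKO 2. Mrc1, a mannose receptor of border macrophages, was at 258 CPM in WT 5 and 20.98 to 24.2 CPM elsewhere. The part of those cells in the Bmx reads was not tested. The 24 arterial genes listed below summed to 3092 CPM in WT 5 and to 2784 to 3190 CPM in the other libraries. Of the 22 in both tables, 6 were highest in WT 5, 7 in WT 3, 5 in STING ECKO 1 and 4 in STING ECKO 2. The part of arterial cells in the Bmx reads was not tested either.

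Gkn3, which encodes a secreted gastrokine known as a marker of arterial endothelium in brain, had no listed row. In each table the smallest count opposite a 0 is 5, and no gene has 0 in both columns, which bounds a gene without a row at 4 reads per library. For Gkn3 (ENSMUSG00000030048, chromosome 6, 87383256 to 87388935, minus strand, GENCODE M21) that allows at most 0.218 CPM in STING ECKO 1 and 0.183 to 0.193 CPM in the others, or at most 0.214 to 0.255 RPKM. The library totals behind the deposited CPM exceed the listed reads by only 598 to 2046 reads per library over all unlisted genes together. Gkn3 was therefore at or below the bound of 4 reads in each of the 4 libraries, and its absence cannot be told from a few reads.

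The promoter windows of the listed arterial members are shown as sequence only. Gja4 was high and even across libraries while Gja5 and Bmx were low and uneven. Any link of the sequences to level or evenness was not tested. Each window runs from 250 bases before to 50 after the annotated start (RefSeq, GRCm38.p6), 5′ to 3′ on the gene's own strand: chr4:127313990-127314289 for Gja4 (minus), chr3:97032152-97032451 for Gja5 (plus) and chrX:164258144-164258443 for Bmx (minus). Capitals mark matches to the motifs searched.
Gja4: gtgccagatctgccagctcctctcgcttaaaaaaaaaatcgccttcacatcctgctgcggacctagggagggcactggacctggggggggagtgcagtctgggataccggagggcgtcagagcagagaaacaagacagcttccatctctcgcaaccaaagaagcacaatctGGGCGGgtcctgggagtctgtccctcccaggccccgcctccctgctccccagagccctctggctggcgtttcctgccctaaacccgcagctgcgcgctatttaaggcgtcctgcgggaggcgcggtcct
Gja5: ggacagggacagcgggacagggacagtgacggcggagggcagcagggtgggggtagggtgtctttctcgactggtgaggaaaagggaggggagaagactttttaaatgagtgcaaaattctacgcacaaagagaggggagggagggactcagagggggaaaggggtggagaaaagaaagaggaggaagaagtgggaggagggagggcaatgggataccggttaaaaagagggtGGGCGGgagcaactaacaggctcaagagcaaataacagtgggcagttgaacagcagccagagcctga
Bmx: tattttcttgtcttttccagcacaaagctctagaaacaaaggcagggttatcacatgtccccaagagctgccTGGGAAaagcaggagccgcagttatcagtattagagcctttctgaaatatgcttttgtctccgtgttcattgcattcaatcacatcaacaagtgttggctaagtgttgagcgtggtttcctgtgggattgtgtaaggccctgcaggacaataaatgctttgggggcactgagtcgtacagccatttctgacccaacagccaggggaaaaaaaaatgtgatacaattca

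The motifs were searched on both strands: GGGCGG (Sp1), TGGGAA (the core bound by RBPJ, the DNA-binding partner of Notch), AGGTCA (bound by nuclear receptors such as COUP-TFII), TGAGTCA (AP-1), CACGTG (an E-box) and AGATAA, bound by GATA factors. The Gja4 and Gja5 windows each held GGGCGG, at bases 172 to 177 and 234 to 239, a sequence found in 35.7% of the 32851 windows in the table. The Bmx window held TGGGAA at bases 73 to 78, found in 25.6% of windows. Among the other members, the Gja1 window held TGAGTCA (5.20% of windows) and AGATAA (11.2%), Gkn3 held AGATAA, and Nr2f2 held none of the 6. AGGTCA (16.3% of windows) and CACGTG (7.15%) were in none of the 6 members' windows. A match describes these letters only. GC content was 62.0% in the Gja4 window, 55.7% in Gja5 and 44.7% in Bmx, beside a median of 52.7% over all windows. The Gja5 start used here lies 127709 bases inside the span that the deposited tables give for the gene.

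**Figure D1:**
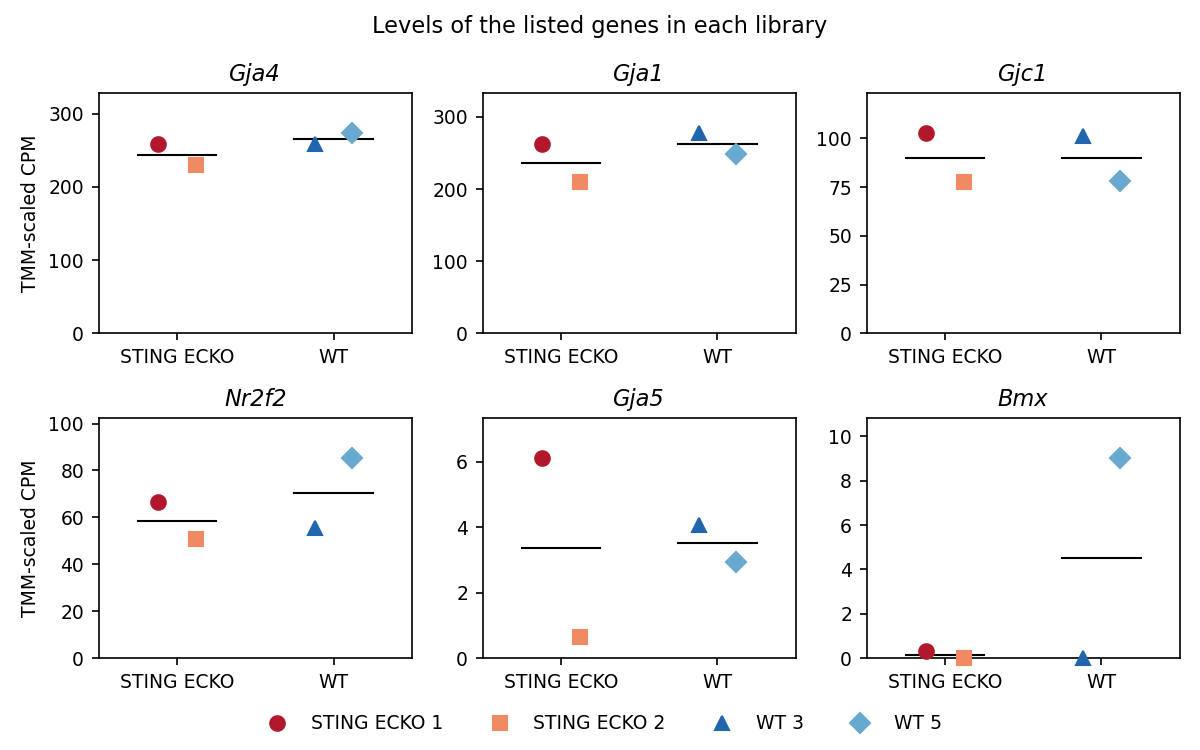
TMM-scaled CPM (vertical axis, from 0) of the 6 listed genes in each library; points are libraries, the horizontal line is the mean of the 2 libraries of a genotype. Gja4 ran from 230 to 273 CPM, while 187 of the Bmx reads came from WT 5 and Gja5 ranged from 0.640 to 6.10 CPM.

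Gja1 encodes connexin 43, which endothelial cells share with astrocytes, mural cells and many other types. Its gene (ENSMUSG00000050953, plus strand) lies on chromosome 10 from 56377330 to 56402513. It had 263 and 210 CPM in STING ECKO 1 and 2 and 277 and 249 CPM in WT 3 and 5, from 4594 to 5997 reads. STING ECKO 2 was lowest and WT 3 highest, and STING ECKO 1 lay between the WT libraries. The means were 236 ± 37.4 CPM in STING ECKO against 263 ± 19.965 CPM in WT (SD, n = 2 each), and the log2 fold change was -0.15 (SE 0.23, 95% interval -0.73 to 0.42; adjusted p = 1.00, edgeR quasi-likelihood, Benjamini-Hochberg adjusted). Leaving out STING ECKO 1 gave -0.31, and leaving out STING ECKO 2 gave -0.0010. The 11 astrocyte and radial glia markers summed to 160 and 84.8 CPM in STING ECKO 1 and 2 and 240 and 146 CPM in WT 3 and 5. That sum was lowest in STING ECKO 2 and highest in WT 3 too, but not every marker followed it. Most of the sum in STING ECKO 2 came from Sox9, at 77.7 and 69.8 CPM in STING ECKO 1 and 2. In WT 3 and 5 Sox9 was at 97.1 and 38.3 CPM, so it was lowest in WT 5. Fabp7 was also lowest in WT 5 (9.11 CPM, with 9.51 CPM in STING ECKO 2). Sox9 and Fabp7 were named after their values were seen. In STING ECKO 2, 6 of the 11 were at 0 or unlisted, among them Aqp4, the water channel of astrocyte endfeet. The part of glial RNA in the Gja1 level was not tested. In such bulk samples, fewer cells of a type and less RNA per cell cannot be told apart.

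Gjc1 encodes connexin 45, a connexin of mural cells that is also made in early endothelium. Its gene (ENSMUSG00000034520, minus strand) lies on chromosome 11 from 102799579 to 102819700. It had 102 and 77.5 CPM in STING ECKO 1 and 2 and 101 and 78.0 CPM in WT 3 and 5, from 1619 to 2192 reads. Each genotype held a library near 100 and one near 78 CPM, so the means were almost equal, at 90.0 ± 17.6 and 89.7 ± 16.4 CPM (SD, n = 2 each). The log2 fold change was 0.0047 (SE 0.33, 95% interval -0.84 to 0.85; adjusted p = 1.00, edgeR quasi-likelihood, Benjamini-Hochberg adjusted), and its sign turned without STING ECKO 1 (-0.20), without WT 5 (-0.16) and with libraries scaled by the endothelial markers (-0.077). The higher library of each genotype was the one in the same deposited table, STING ECKO 1 beside WT 3. The 11 pericyte markers summed to 10918 and 11402 CPM in STING ECKO 1 and 2 and to 8890 and 8201 CPM in WT 3 and 5, a sum made up largely of Rgs5 (4874 to 7221 CPM). Only Abcc9 of the 11, a channel subunit, ranked the libraries in the order of Gjc1. Its CPM fell from 259 (STING ECKO 1) through 216 (WT 3) and 137 (WT 5) to 129 (STING ECKO 2). Of the 11, 6 peaked in STING ECKO 2, 4 in STING ECKO 1 and 1 in WT 5. For 7 of them each STING ECKO library lay above each WT library, and 1 was wholly lower. Over all genes tested, these shares were 15.4% and 19.0%. In Gjc1 the genotypes overlapped. The part of pericyte RNA in the Gjc1 level was not tested.

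Nr2f2, the venous regulator, was expressed in every library. Its gene (ENSMUSG00000030551, minus strand) lies on chromosome 7 from 70351944 to 70366735. It had 66.6 and 50.7 CPM in STING ECKO 1 and 2 and 55.5 and 85.2 CPM in WT 3 and 5, from 1110 to 1768 reads. WT 5 was highest and WT 3 fell between the STING ECKO libraries. The means were 58.7 ± 11.2 CPM in STING ECKO against 70.4 ± 21.02 CPM in WT (SD, n = 2 each), and the log2 fold change was -0.26 (SE 0.41, 95% interval -1.31 to 0.79; adjusted p = 1.00, edgeR quasi-likelihood, Benjamini-Hochberg adjusted). Without WT 5 the value was 0.089, and without WT 3 it was -0.54. Lyve1, made by lymphatic endothelium and by macrophages, was highest in that library too, at 215 CPM in WT 5 and 26.2, 1.05 and 22.6 CPM in STING ECKO 1, STING ECKO 2 and WT 3. Prox1, the defining regulator of lymphatic endothelium, was unlisted in both tables, and the part of other Nr2f2-expressing cells was not tested. Exons of Nr2f2 share 643 bases with the antisense transcript B130024G19Rik, which had 103 to 196 reads.

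**Figure D2:**
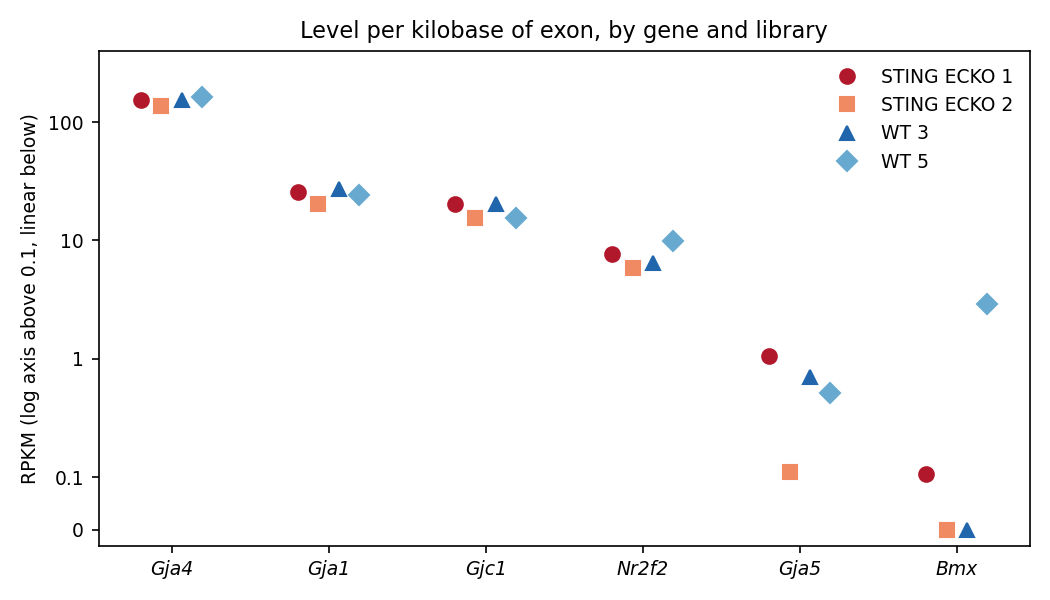
RPKM (vertical axis, logarithmic above 0.1 and linear below) of each listed gene in each library; points are libraries. Gja4 lay above all other members in every library, and Gja5 and Bmx lay lowest, with Bmx at 0 in STING ECKO 2 and WT 3.

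Per kilobase, the members had the same upper order in all 4 libraries. Gja4 was at 137 to 162 RPKM, Gja1 at 20.5 to 27.0, Gjc1 at 15.5 to 20.5 and Nr2f2 at 5.88 to 9.88. Gja1 was 1.25 to 1.56 times Gjc1 within each library, although the ranges of these neighbours touched across libraries. Below them, Gja5 at 0.111 to 1.06 RPKM and Bmx at 0 to 2.92 RPKM had ranges that overlapped, so their order is not set. Of the summed RPKM of the 4 connexins, Gja4 made up 76.2% to 80.0%, Gja1 11.9% to 13.4%, Gjc1 7.71% to 10.2% and Gja5 0.0645% to 0.530%. These levels rest on exon lengths of GENCODE M21, and a shorter transcript in use would raise a gene's RPKM.

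No member passed the test used between the genotypes. By edgeR quasi-likelihood with Benjamini-Hochberg correction, 0 of the 5 tested members were called, and 0 of all 13365 genes (0%), with 642 (4.80%) at an unadjusted p under 0.05, none of them a member. DESeq2 called 87 of 12587 genes (0.691%) and 0 of the 5 members. In all 5 tested members the genotypes overlapped. Over all genes tested, the genotypes did not overlap with STING ECKO higher in 15.4% and with STING ECKO lower in 19.0%. The 95% intervals of Gja4 and Gja1 leave room for log2 fold changes down to -0.64 and -0.73 and up to 0.40 and 0.42, so differences larger than these lie outside them, while for Gja5 the interval spans more than 8 log2 units and says little.

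**Figure D3:**
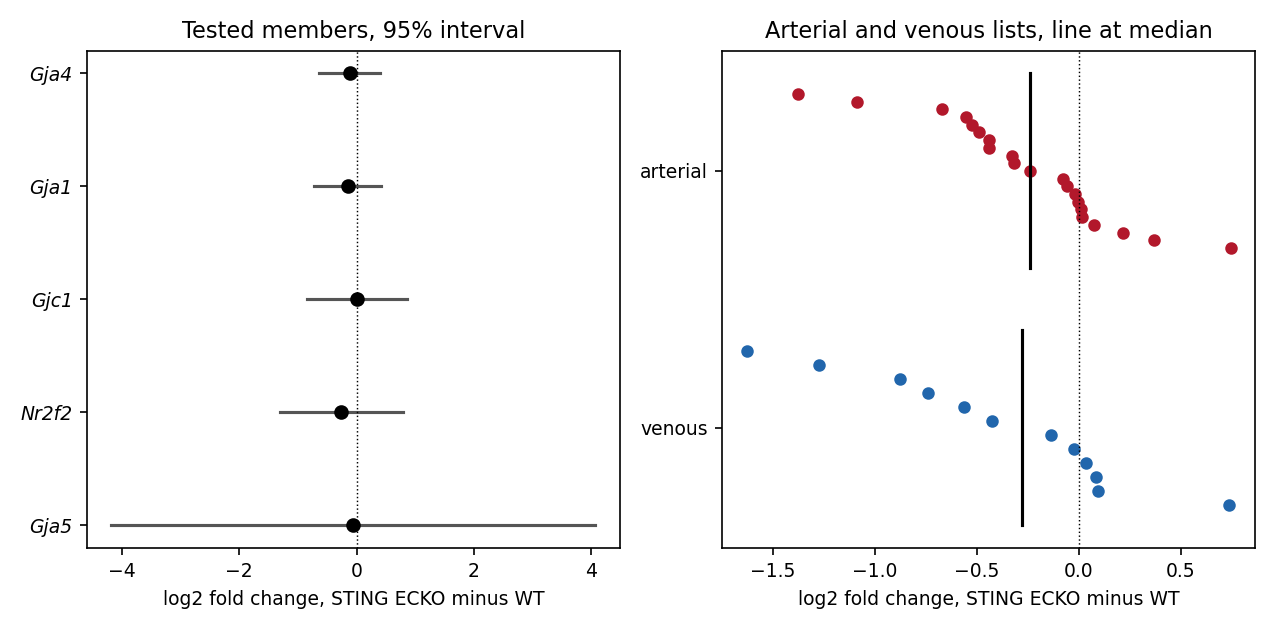
Left, log2 fold change of STING ECKO over WT (points) with 95% intervals (lines) for the 5 tested members; right, log2 fold changes of the tested arterial (21) and venous (12) genes, each point a gene and the line the median. All 5 intervals include 0, and the medians are -0.24 and -0.28.

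The authors' deposited tables set 1 library against 1 library and mark genes by fold and p. With STING ECKO 1 and WT 3, the authors' deposited table marked 40.9% of its genes and 1 of the 6 listed members, Bmx, at a fold of 13.8. With STING ECKO 2 and WT 5, the authors' deposited table marked 52.1% of its genes and 2 members, Bmx at a fold of 0.00248 and Gja5 at 0.213. Bmx was thus marked in opposite directions in the authors' deposited tables, from 6 reads against 0 and from 0 against 187, where the authors write 0 as a fraction of a read. For Gja5, the authors' deposited table with STING ECKO 1 gives a fold of 1.47 without a mark. Such comparisons concern those libraries and not the genotypes.

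Scatter between libraries was set beside that of genes of a like level, within 1.5-fold of the member's mean CPM. The coefficient of variation over the 4 libraries was 7.03% for Gja4, against a median of 18.8% over 820 genes. It was 11.6% for Gja1 (median 18.9%), 15.5% for Gjc1 (27.3%) and 23.8% for Nr2f2 (31.6%). For Gja5 it was 66.3%, where 1561 genes of like level had a median of 96.5%. Bmx alone lay above its background, with 191% against a median of 106% over 1359 genes. Scatter thus grew as levels fell, for the members as for other genes, and no test was made of these differences.

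The genes most like each member over the 4 libraries were found by the root mean square difference of centred log2 CPM, among genes of at least 5 CPM. For Gja4 they were Heyl (0.02) and Qdpr (0.02), with 242 of 10297 genes within 0.1. For Gja1 they were Dnmt3a (0.0085) and St3gal2 (0.01), with 193 genes within 0.1, for Gjc1 they were Dlc1 (0.02) and Prkd3 (0.04), with 102, and for Nr2f2 Cd47 (0.03) and Prex1 (0.03), with 58. Gja5 had only 2 genes within 0.1, Mbd1 (0.06) and E2f7 (0.08). Mbd1 was at 41.5 CPM in STING ECKO 1 but 5.16 in STING ECKO 2, with 26.6 and 20.97 CPM in WT 3 and 5. Over only 4 libraries many genes come this close, so the likeness describes a profile and nothing more.

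Other arterial genes gave no call either. Of 24 listed for this description, 21 were tested, 0 passed (edgeR quasi-likelihood, Benjamini-Hochberg adjusted), 6 had a log2 fold change above 0 and 15 below, and the median was -0.24 beside -0.03 over all genes. Leaving out 1 library moved that median to 0.07 (STING ECKO 2), -0.12 (WT 5), -0.16 (WT 3) or -0.25 (STING ECKO 1). Notch1, the receptor at the head of the arterial programme, was at 152 and 137 CPM in STING ECKO against 222 and 171 CPM in WT, a log2 fold change of -0.44 (SE 0.25). Notch4, the endothelial Notch receptor, was at 81.1 and 188 CPM against 65.5 and 95.2 CPM, a value of 0.74 (SE 0.49). Dll4, the arterial Notch ligand, was at 197 and 278 CPM in STING ECKO against 199 and 271 CPM in WT. Hey1, a Notch target, was at 276 and 205 CPM against 249 and 234 CPM, so both were abundant and overlapped.

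Several of the less abundant arterial genes had few reads in STING ECKO 2, as Gja5 did. Sema3g, a secreted arterial semaphorin, had 24 reads there, where STING ECKO 1 had 466, WT 3 had 813 and WT 5 had 388. Hey2, a repressor downstream of Notch, had 2 reads against 250, 164 and 296. Fbln5, an elastic fibre protein, had 0 reads against 399, 494 and 697. These 3, with Dll4, Hey1, Mrc1, P2ry12, Abcc9 and Cxcr4, were named after their values were seen. Of the 8 tested arterial genes below a mean of 50 CPM, STING ECKO 2 was the lowest library in 6, and of the 13 at or above it in 7. The exceptions among the 8 were Efnb2, highest in STING ECKO 2 (42.2 CPM, with 26.5 to 29.1 elsewhere), and Cxcr4, at 20.02 CPM there and 17.4 to 21.7 CPM elsewhere. Over all genes tested, STING ECKO 2 was lowest in 39.0% below that level and in 32.6% above it. Among genes that averaged 1 to 5 CPM elsewhere, 36.2% had 0 reads in STING ECKO 2, where the same share was 6.43% to 15.3% for each other library, and the part of these zeros in the low arterial values was not tested.

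**Figure D4:**
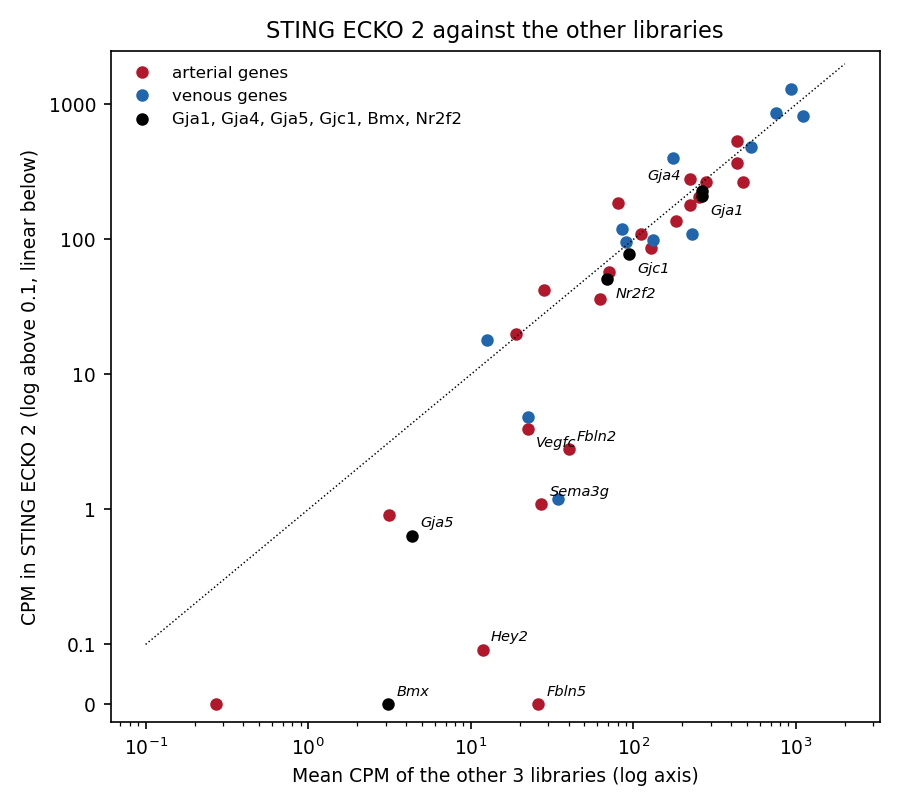
CPM in STING ECKO 2 (vertical axis, logarithmic above 0.1 and linear below) against the mean CPM of the other 3 libraries (horizontal, log axis) for arterial genes, venous genes and the listed members; each point is a gene and the dotted line marks equal levels. Abundant genes lie near the line, while Gja5, Bmx, Sema3g, Hey2, Fbln5, Fbln2 and Vegfc lie below it.

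The venous list numbered 17, of which 12 were tested, 0 passed (edgeR quasi-likelihood, Benjamini-Hochberg adjusted), 4 lay above 0 and 8 below, with a median log2 fold change of -0.28. That median was -0.05 when STING ECKO 1 was left out and -0.44 when WT 3 was. Of the 12, 1 had an unadjusted p under 0.05, which was Dab2, an endocytic adaptor that macrophages also make, at 174 and 109 CPM in STING ECKO against 242 and 277 CPM in WT (log2 fold change -0.88, SE 0.30, adjusted p = 0.977, edgeR quasi-likelihood test). Vwf, a haemostatic glycoprotein enriched in veins, was at 948 and 826 CPM against 1203 and 1182 CPM. Ephb4, the receptor that marks veins and binds ephrin-B2, was at 179 and 400 CPM in STING ECKO against 176 and 172 CPM in WT, high in STING ECKO 2 alone. Its arterial ligand Efnb2 was at 29.1 and 42.2 CPM against 26.5 and 28.9 CPM. Ackr1, a chemokine receptor of venules, had 138 reads in WT 5 and 0 in STING ECKO 2 and was unlisted for the other libraries, a distribution close to that of Bmx. Ephb4, Efnb2 and Ackr1 were named after their values were seen.

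The remaining connexin and pannexin genes were mostly unlisted or at few reads. Of 19, 15 had no listed row in either table, and these included Gjb6 and Gjb2, the connexins of astrocytes and leptomeninges. Panx1, a channel protein related in shape to connexins, was the only one tested, at 2.29 and 3.15 CPM in STING ECKO against 4.90 and 8.19 CPM in WT, a log2 fold change of -1.26 (SE 1.31; adjusted p = 1.00, edgeR quasi-likelihood, Benjamini-Hochberg adjusted). Gjd3 had 303 reads in WT 3 (16.7 RPKM, where Gjc1 was at 20.2 RPKM) and 5 reads in STING ECKO 1 (0.325 RPKM). It was unlisted in the other table. Panx2 had 31 and 53 reads in STING ECKO 1 and WT 3 and was unlisted in the other table. Proteins that bind or modify connexins were all 8 tested, 0 passed, and the median log2 fold change was -0.08, or -0.15 to 0.08 with 1 library left out, above 0 without either STING ECKO library. Cav1 of the caveolar coat had 287 and 151 CPM in STING ECKO against 376 and 462 CPM in WT (log2 fold change -0.93, SE 0.36, adjusted p = 1.00, edgeR quasi-likelihood test), and Csnk1d, a kinase of connexin 43, at 214 and 178 CPM against 168 and 135 CPM. Of the relatives of Bmx, Gkn3 and Nr2f2, 5 of 8 were tested and 0 passed, with a median of -0.54 that became 0.03 when WT 3 was left out and -0.98 when STING ECKO 2 was. Tec, a kinase related to Bmx, was at 26.8 and 26.3 CPM in STING ECKO against 23.0 and 17.1 CPM in WT. Btk, the Tec family kinase of B and myeloid cells, had 4 and 0 reads in STING ECKO against 167 and 63 in WT, and Txk had 0 and 15 against 102 and 7. Btk and Txk were named after their values were seen.

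The labelled cell type was checked by its markers. All 13 endothelial markers had reads in every library and summed to 21293 and 23196 CPM in STING ECKO 1 and 2 and 21389 and 20221 CPM in WT 3 and 5. A few abundant genes made up most of these sums, so they say little of the others. Of the 13, 8 had a log2 fold change above 0 and 5 below. In 4 each STING ECKO library lay above each WT library and in 2 below, beside 15.4% and 19.0% of all genes tested. Smooth muscle markers summed to 698 and 770 CPM against 596 and 537 CPM. Most of that sum came from Mylk (281 to 387 CPM) and Myl9 (227 to 383 CPM). Acta2, on the same list, had 0 reads in each STING ECKO library but 31 and 55 reads in WT 3 and 5. Fibroblast markers summed to 281 and 286 CPM against 244 and 195 CPM, mostly from Col1a2 and Col3a1. Dcn, also on that list, ranged from 0 to 7.12 CPM. Acta2 and Dcn were named after their values were seen. The amount of either cell type was not tested. Neuron markers summed to 63.8 and 42.2 CPM against 135 and 92.2 CPM, oligodendrocyte precursor markers to 10.8 and 1.46 CPM against 15.99 and 7.09 CPM, and red cell markers to 1228 and 2852 CPM against 2514 and 1314 CPM. With RNA of mural cells, glia and macrophages in the samples, the levels of all listed members, Gja4 included, are those of the mixture.

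**Figure D5:**
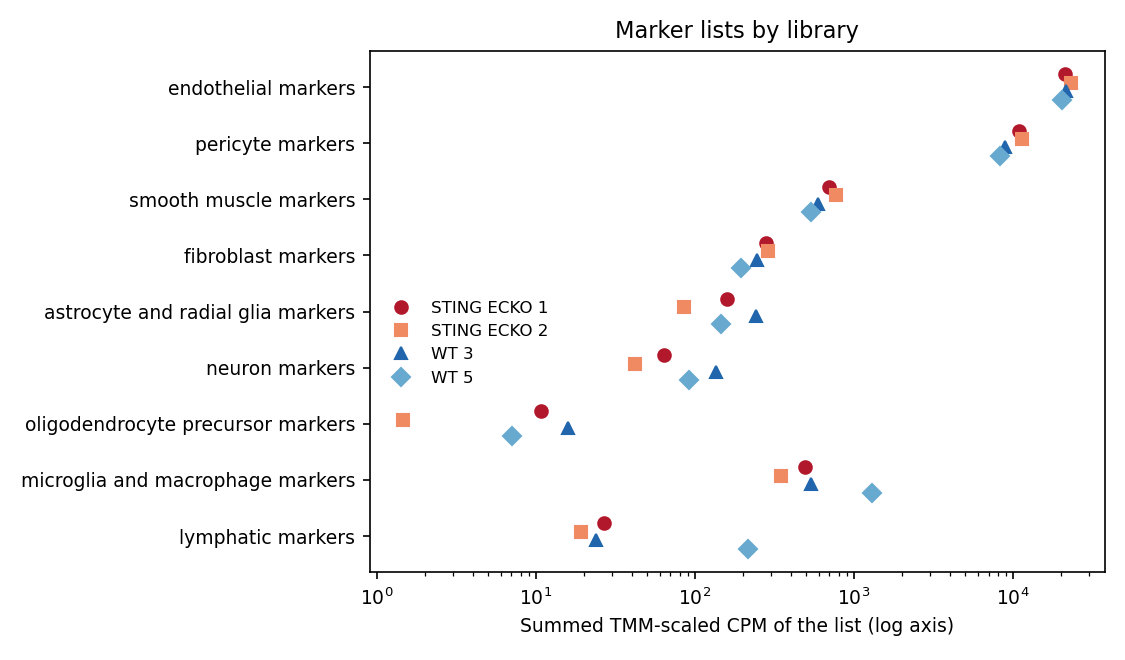
Summed TMM-scaled CPM of each marker list (horizontal, log axis) in each library (points). Endothelial markers lay between 20221 and 23196 CPM, while the sums of the microglia and macrophage list and of the lymphatic list were highest in WT 5, the latter through Lyve1 (215 CPM); Reln, also on it, had 395 reads in STING ECKO 2 and 0 in WT 5.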

How the data were processed

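The authors deposited raw counts in 2 tables, each with a column for either library (STING ECKO 1 with WT 3, STING ECKO 2 with WT 5). Tools, per the submitters' processing notes, were TopHat2 2.0.12, HTSeq 0.6.0 and Bowtie2 2.2.3, with mm9 as the build. The sources used here do not give strand settings. Positions in the tables equal those of GENCODE M21 (GRCm38) for 89.6% of matched genes. The deposited normalized columns are CPM with 0 written as a fraction of a read, and were used only for library totals. The authors' fold change is the ratio of those values, and the authors' log2 column is its log2. The deposited p-values of the authors were not used.

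Tables were merged by gene identifier, and the 14100 genes in both were fitted in R 4.3.3 with edgeR 4.0.16, using TMM factors, filterByExpr (minimum count 10), the quasi-likelihood test and Benjamini-Hochberg adjustment over 13365 genes at 0.05. The script was tested on simulated data. Alternatives were DESeq2 1.42.0, other scalings, no filter, a block by table, genes of either table and each library left out in turn. The standard error is the log2 fold change over the square root of F. The rule named all members, the 2 genes of each list with the smallest p and a mean of at least 5 CPM, and the 2 genes most like each member (log2 CPM, prior count 2). Members and lists were chosen with earlier results of these data known. The values of 1 listed gene are not reported here.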

Additional observations from a re-analysis of the deposited data

How the results depend on the processing

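The count of 0 called genes held under the alternatives run except DESeq2, which called 87 genes, with STING ECKO higher in 44 and lower in 43. Leaving out each library gave 0 in every case, with 160 to 2682 genes at an unadjusted p under 0.05; the genotype with a lone library is then assumed to vary like the other. Of 50 values of tested members under alternatives, none passed 0.05 adjusted and 6 turned sign: Gjc1 with endothelial scaling (-0.077), without STING ECKO 1 (-0.20) and without WT 5 (-0.16), Gja5 without STING ECKO 2 (0.80) and without WT 3 (0.20), and Nr2f2 without WT 5 (0.089). With each library left out in turn, Gja5 ran from -2.43 to 0.80, Gjc1 from -0.20 to 0.21 and Nr2f2 from -0.54 to 0.089. The causes were not tested. The labels give no pairing, because the genotypes share no replicate number. A block by deposited table, which pairs libraries only as they were deposited, called 0 genes, with 273 at an unadjusted p under 0.05. Gja5, Bmx and Gkn3 had at most 187 reads in any library, so their values carry the widest counting error among the members. Depth does not order them: STING ECKO 2, with the most reads listed (22169261), had the fewest Gja5 reads.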
